A study of Mus musculus with 656 samples.

Results

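SC-514 at 100 µM was compared with 0 µM in mouse 3T3 fibroblasts that had been stimulated for 60 min under the label TNF-α. The comparison rests on 8 libraries, the 4 of each of 2 groups among the 41 groups of 4 libraries that the study holds, chosen by the labels of stimulus, inhibitor concentration and time. 3T3 cells are a long-established line of mouse embryonic fibroblasts. In the study, cells first received 0, 25, 50 or 100 µM of SC-514, a small molecule that inhibits the kinase IKKβ, and after 1 h were given TNF-α at 10 ng/ml or IL-1β at 1 ng/ml for 15, 30, 60, 120 or 360 min, beside 1 unstimulated group. Messenger RNA was counted by TagSeq, which sequences the 3′ ends of poly-A RNA. The groups used here are TNF-α for 60 min with SC-514 at 100 µM and at 0 µM, and beside them TNF-α for 60 min with 50 µM and 25 µM, TNF-α for 15, 30, 120 and 360 min with 100 µM and 0 µM, IL-1β for 60 min with 100 µM and 0 µM, and unstimulated cells without SC-514, each with 4 libraries. No group received the inhibitor without a cytokine, so an effect on the cytokine response and an effect on resting cells cannot be told apart, and the vehicle given at 0 µM is not stated in the labels. The columns that the descriptions tie to IL-1β carry the prefix that the titles use for TNF-α. The columns tied to TNF-α carry no such prefix. The stimulus label was followed throughout, so TNF-α here means labelled TNF-α, and under the other reading these 8 libraries would be the IL-1β ones.

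TNF-α acts through the receptor TNFR1, whose complex of adaptors and ubiquitin ligases activates the IκB kinase complex. In that complex IKKβ phosphorylates IκBα, which is then degraded, and the freed NF-κB dimers enter the nucleus and switch on cytokine and chemokine genes together with genes for their own inhibitors, such as Nfkbia for IκBα and Tnfaip3 for A20. The same receptor complex also starts MAP kinase cascades that act on immediate early genes such as Fos and Egr1, and fibroblasts answer TNF-α with neutrophil-attracting chemokines, interleukin-6 and matrix-degrading enzymes.

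The libraries held 1266277 to 2084729 counts at 100 µM and 942493 to 1323589 counts at 0 µM, and 13548 to 14573 genes had at least 1 count at 100 µM, against 13108 to 13737 at 0 µM. Levels are given as CPM, which are counts scaled to the TMM-adjusted size of each library, and 3 counts correspond to 1.43 to 3.41 CPM in these 8 libraries. The summed level of 14 fibroblast marker genes was 7972 to 9728 CPM at 100 µM and 9111 to 10273 CPM at 0 µM. Of the 14, Lum had 1 count at 100 µM and 0 at 0 µM, and Fap 3 and 5, and neither was tested. Markers of other cell types summed to 182 to 228 CPM at 100 µM and 166 to 190 CPM at 0 µM. Adgre1 of macrophages, Epcam and Cdh1 of epithelium, Cd3e of T cells and Adipoq of adipocytes had no count in any of the 8 libraries. They were 5 of the 20 markers of other cells with an entry, and other markers did have counts. At 100 µM and 0 µM Lpl averaged 153 and 111 CPM, Cd14 7.86 and 22.3, Lyz2 7.29 and 5.07 and Pecam1 5.82 and 5.52. Mitochondrial transcripts took 0.750 ± 0.145% of counts at 100 µM and 0.683 ± 0.124% at 0 µM (SD, n = 4 each), an exact two-sided permutation p of 0.543 where the smallest possible is 0.0286. The labels do not state whether the 4 libraries within each group stem from independent cultures, and the spread behind every p-value may therefore be technical.

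Shown here are the promoters of 4 genes of the comparison that carry a strict form of the NF-κB site, GGGA, any base, TT, any base, CC, searched on both strands, in the 300 bases around the RefSeq start (GRCm38.p6). They are shown because Il6, Cxcl2, Cxcl1 and Nfkbia hold the same kind of site and yet differed widely in how far SC-514 lowered them. Capitals mark the site. In Nfkbia it reads as the reverse complement. The Il6 promoter spans chr5:30012864-30013163 on the plus strand, Cxcl2 chr5:90903649-90903948 (plus), Cxcl1 chr5:90890995-90891294 (plus) and Nfkbia chr12:55492598-55492897 (minus), and the site begins at positions -44, -97, -71 and -29 from the start site in these 4 genes.
Il6: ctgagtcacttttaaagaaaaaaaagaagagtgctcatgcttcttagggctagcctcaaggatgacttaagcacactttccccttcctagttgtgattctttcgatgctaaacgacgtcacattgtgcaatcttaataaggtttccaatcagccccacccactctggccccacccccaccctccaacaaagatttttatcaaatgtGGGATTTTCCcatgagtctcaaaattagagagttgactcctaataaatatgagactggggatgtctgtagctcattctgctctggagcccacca
Cxcl2: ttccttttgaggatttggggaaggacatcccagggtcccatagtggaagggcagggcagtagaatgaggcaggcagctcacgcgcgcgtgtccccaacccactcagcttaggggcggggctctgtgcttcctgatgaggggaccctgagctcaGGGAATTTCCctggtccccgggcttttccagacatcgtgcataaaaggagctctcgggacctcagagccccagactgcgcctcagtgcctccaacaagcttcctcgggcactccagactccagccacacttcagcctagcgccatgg
Cxcl1: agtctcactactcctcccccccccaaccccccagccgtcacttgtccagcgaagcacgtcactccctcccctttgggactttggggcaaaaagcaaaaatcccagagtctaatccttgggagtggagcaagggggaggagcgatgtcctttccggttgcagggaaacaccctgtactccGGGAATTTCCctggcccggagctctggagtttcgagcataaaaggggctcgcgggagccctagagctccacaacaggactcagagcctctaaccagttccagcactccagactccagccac
Nfkbia: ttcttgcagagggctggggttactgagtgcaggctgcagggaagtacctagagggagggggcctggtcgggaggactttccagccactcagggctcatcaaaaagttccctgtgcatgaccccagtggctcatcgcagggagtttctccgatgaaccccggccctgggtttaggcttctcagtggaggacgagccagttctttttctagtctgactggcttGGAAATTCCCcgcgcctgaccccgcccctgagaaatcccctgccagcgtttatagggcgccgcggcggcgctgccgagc

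The site was found in the promoters of 34 of the 1168 genes lower at 100 µM that have a promoter in the table (2.91%) and in 5 of 703 genes higher at 100 µM (0.711%), while 137 of all 8497 tested genes with a promoter had it (1.61%). Of the genes lower by at least 4-fold, 4 of 45 held it (8.89%), and of those higher by at least 4-fold 0 of 9. A looser form of the site was found for 35.9% of genes lower at 100 µM, 30.6% of those higher and 31.0% of all. It was found for 44.4% of genes lower and 55.6% (5 of 9) of genes higher by at least 4-fold. A gene counted if any of its promoters held the site. Lower genes had 1.34 promoters on average, higher genes 1.25 and all genes 1.28. The AP-1 site TGANTCA, bound by Fos and Jun proteins, was found for 7.79% of genes lower at 100 µM, 6.40% of those higher and 5.97% of all. It was found for 9 of 45 genes lower by at least 4-fold (20%) and for 0 of 9 higher by at least 4-fold. These matches are a description of letters in a window and were given no test.

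At 100 µM SC-514, 1468 of 10766 tested genes (13.6%) were lower than at 0 µM and 896 (8.32%) were higher, 22.0% in all, at an adjusted p under 0.05 in edgeR's quasi-likelihood test with Benjamini-Hochberg adjustment. The large decreases outnumbered the large increases. Among the called genes 247 (2.29% of all tested) were lower and 111 (1.03%) were higher by at least 2-fold, and 61 (0.567%) were lower and 16 (0.149%) were higher by at least 4-fold. The 4 libraries at 100 µM did not overlap the 4 at 0 µM in 2166 genes (20.1%). The cytokine genes Il1a, Il6, Csf3 and Il23a and the effector genes Acod1, Icam1 and Mmp10 were among the 15 named genes with the largest decreases, and histone genes and the BMP-responsive genes Id2 and Smad6 were among the 12 with the largest increases. The split between directions depended on the scaling. With RLE factors 1077 genes were lower and 1396 higher, and with library totals 944 were lower and 1661 higher, and because library totals moved the median of all genes by 0.10 on the log2 scale, every direction here is relative to TMM factors. In bulk RNA, fewer cells of a kind and less RNA per cell cannot be told apart.

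**Figure D1:**
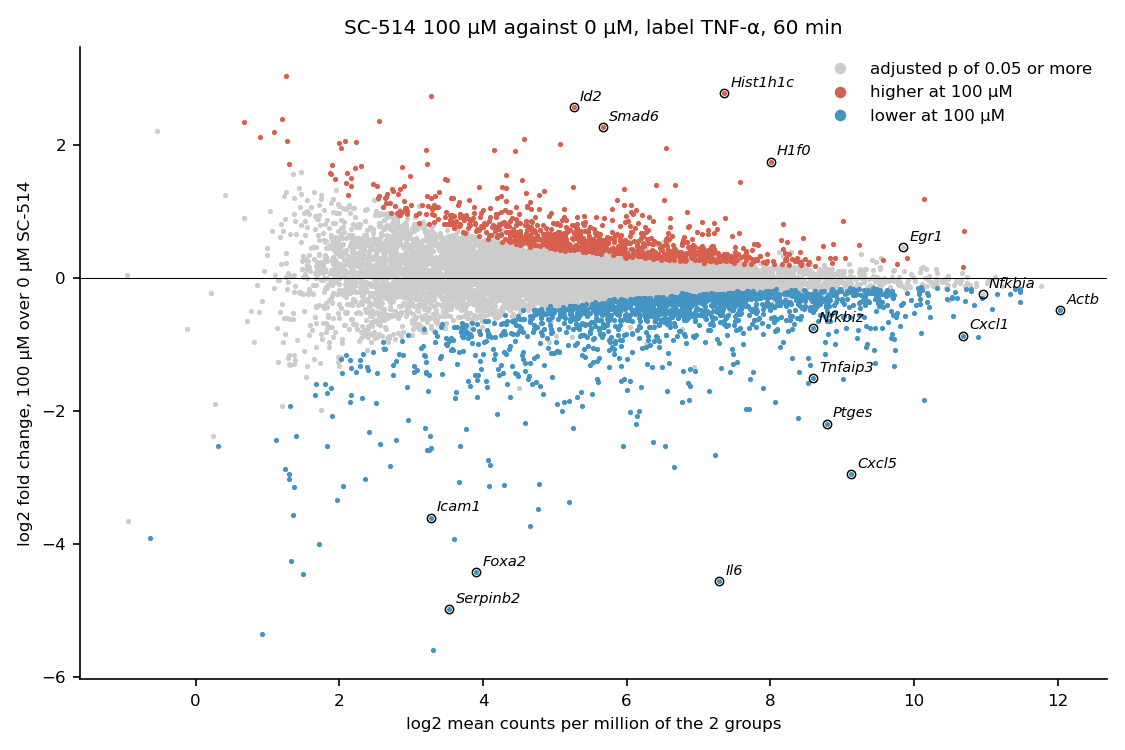
Each point is 1 of 10766 tested genes, with the log2 mean level in CPM over the 8 libraries on the x axis and the log2 change at 100 µM against 0 µM SC-514 (TNF-α, 60 min) on the y axis. Genes past an adjusted p of 0.05 are coloured, 1468 of them lower and 896 higher, and Il6 at -4.55 and Hist1h1c at 2.77 lie near the ends.

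The secreted cytokines fell furthest. Of 12 tested cytokine genes 10 were lower at 100 µM, against 13.6% of all genes, and their median log2 change was -1.38, against 0.01 for all genes. With the 8 libraries fitted alone 9 of 10 were lower, at a median of -1.72, beside 1150 of all 9596 genes tested in that fit. Il6, which encodes interleukin-6, had 8.98, 11.97, 8.12 and 19.5 CPM at 100 µM, against 263, 331, 316 and 294 CPM at 0 µM. The groups were far apart, with a log2 change of -4.55 (SE 0.27, adjusted p = 1.56e-30), and the mean of 12.1 ± 5.17 CPM at 100 µM lay beside the 11.7 ± 5.67 CPM of unstimulated cells (SD, n = 4 each). Il1a, which encodes interleukin-1α, had 2 counts in all at 100 µM and 88 at 0 µM, a ratio of 63.4 once depth is allowed for (95% counting interval 17.0 to 531). Its level at 0 µM was 28.5, 16.8, 15.9 and 16.7 CPM, and no count was seen in unstimulated cells. Csf3, which encodes the granulocyte growth factor G-CSF, had 1.92, 3.19, 0.677 and 0.475 CPM at 100 µM, against 30.9, 24.0, 19.3 and 16.7 CPM at 0 µM. Il23a, the p19 subunit of interleukin-23, had 5.13, 4.79, 2.03 and 2.38 CPM at 100 µM, against 48.0, 61.5, 39.8 and 37.0 CPM at 0 µM. Neither of these genes had overlapping groups, with log2 changes of -3.93 (SE 0.44, adjusted p = 3.61e-13) for Csf3 and -3.73 (SE 0.33, adjusted p = 9.44e-20) for Il23a. Csf2, which encodes GM-CSF, kept more of its level, with 103.2, 102.9, 97.5 and 76.5 CPM at 100 µM, against 257, 232, 225 and 289.5 CPM at 0 µM, a log2 change of -1.41 (SE 0.16, adjusted p = 3.59e-13). Il11, Il33, Il1rn, Lif and Csf1 were also lower, by log2 changes of -2.04, -1.34, -1.13, -0.91 and -0.41, whereas Il15 at -0.97 and Tslp at -0.43 did not pass the test.

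Chemokine genes were lower as a group but by very different amounts. Of 15 tested, 10 were lower and 1 was higher, and in 12 all 4 libraries at 100 µM lay below all 4 at 0 µM, as they did in 1293 of the 10766 genes tested. The median log2 change was -1.07. Cxcl5, which encodes a neutrophil-attracting chemokine, had 142, 143, 118 and 111 CPM at 100 µM, against 904, 1150.5, 942 and 943 CPM at 0 µM. The log2 change was -2.95 (SE 0.16, adjusted p = 4.89e-33), and unstimulated cells averaged 136 ± 13.0 CPM (SD, n = 4). Cxcl2, which acts on the same receptor, had 26.9, 26.3, 22.3 and 24.7 CPM at 100 µM, against 115, 116, 121 and 108 CPM at 0 µM, and no count in unstimulated cells. Ccl20, a ligand of CCR6, had 144, 160.4, 117 and 89.3 CPM at 100 µM, against 529, 528, 504 and 595 CPM at 0 µM. Both lay well apart between the groups, with log2 changes of -2.19 (SE 0.21, adjusted p = 3.26e-16) for Cxcl2 and -2.10 (SE 0.18, adjusted p = 2.8e-19) for Ccl20. Cxcl1, the neighbour of Cxcl2 on chromosome 5, had 1221, 1282, 1069 and 1089 CPM at 100 µM, against 2085, 2069, 2201 and 2167 CPM at 0 µM, a log2 change of -0.87 (SE 0.13, adjusted p = 4.96e-08). Ccl2, the monocyte attractant, had 2363, 2813, 2342 and 2441 CPM at 100 µM, against 2818, 3268, 3329 and 3369 CPM at 0 µM. Its groups touched without overlapping, and the log2 change of -0.36 (SE 0.11, adjusted p = 0.0108) lost its call with library totals (adjusted p = 0.0545), in DESeq2 (adjusted p = 0.0518) and without replicate 3 or 4. Cxcl12, which resting fibroblasts make, was the member that rose, to 549 ± 28.3 CPM at 100 µM, against 386 ± 47.6 CPM at 0 µM (SD, n = 4 each). Ccl7, another monocyte attractant, gave -0.02 and did not pass the test, and neither did Ccl5 at -0.26.

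**Figure D2:**
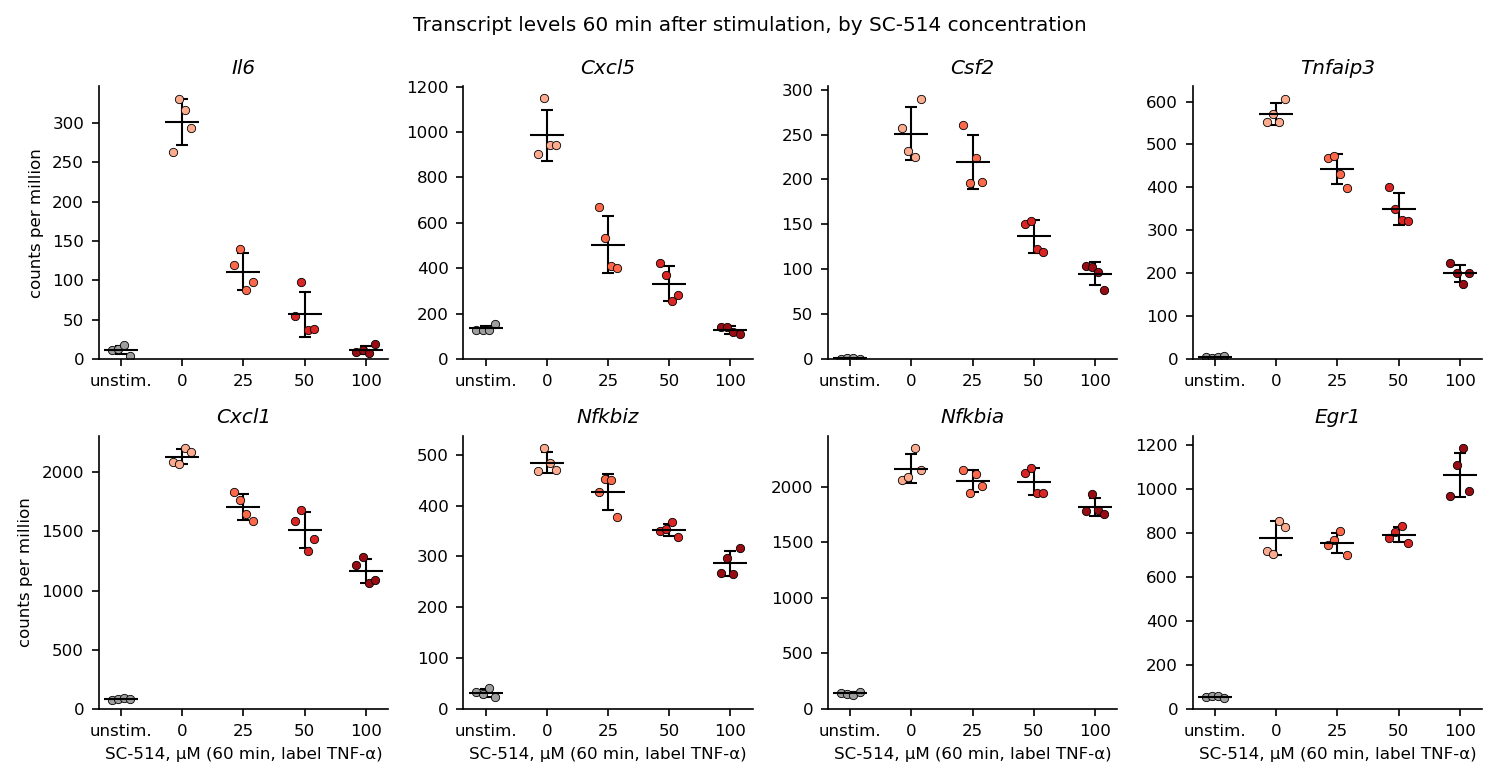
Levels in CPM of Il6, Cxcl5, Csf2, Tnfaip3, Cxcl1, Nfkbiz, Nfkbia and Egr1 in unstimulated cells and after 60 min of TNF-α with 0, 25, 50 and 100 µM SC-514, where points are libraries and bars are the mean ± SD of 4. Il6 averages 12.1 CPM at 100 µM and 11.7 CPM in unstimulated cells, whereas Nfkbia averages 1816 CPM at 100 µM and 2160.1 CPM at 0 µM.

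Most tested genes of the NF-κB feedback list, which holds inhibitors and other regulators, fell by different amounts. Of 15 tested, 10 were lower, against 13.6% of all genes, with a median log2 change of -0.87. In 9 all 4 libraries at 100 µM lay below all 4 at 0 µM, as they did in 1293 of the 10766 genes tested. Nfkbia, which encodes IκBα, had 1786, 1935, 1787 and 1755 CPM at 100 µM, against 2061, 2084, 2346 and 2149 CPM at 0 µM. Every library at 100 µM lay below every library at 0 µM, but the log2 change of -0.25 (SE 0.12, adjusted p = 0.117) did not pass the test. Over the 140.4 ± 9.48 CPM of unstimulated cells, 82.9 ± 3.33% (SE) of the rise seen at 0 µM was present at 100 µM. Tnfaip3, which encodes the deubiquitinase A20, had 224, 200.3, 176 and 200.02 CPM at 100 µM, against 553, 571, 553 and 606 CPM at 0 µM, a log2 change of -1.51 (SE 0.15, adjusted p = 3.26e-16). Of its rise over the 4.97 CPM of unstimulated cells, 34.5 ± 1.89% (SE) was present at 100 µM. Nfkbiz, the gene of IκBζ, a nuclear protein on which Il6 transcription depends, had 268, 297, 265 and 317 CPM at 100 µM, against 469, 513, 485 and 469.9 CPM at 0 µM, and 56.3 ± 3.05% (SE) of its rise was present. Bcl3, another nuclear IκB protein, averaged 29.2 ± 5.18 CPM at 100 µM and 115 ± 13.6 CPM at 0 µM, beside 29.9 ± 5.17 CPM in unstimulated cells (SD, n = 4 each). Nfkbid, Socs3, Tnip3, Tnip1, Zc3h12a, Nfkbib and Nfkbie were lower too, by log2 changes between -3.03 for Nfkbid and -0.71 for Nfkbie. The deubiquitinase Cyld at 0.18 and the RNA-destabilising Zfp36 at 0.09 did not pass the test.

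Downstream effectors were lower as a group, 17 of 23 tested genes, against 13.6% of all genes, at a median log2 change of -1.09. With the 8 libraries fitted alone 14 of 20 were lower, at a median of -0.99, beside 1150 of all 9596 genes tested in that fit. Ptges, the inducible prostaglandin E synthase, had 160.3, 158, 155 and 159 CPM at 100 µM, against 843, 749, 701 and 595 CPM at 0 µM. Its log2 change of -2.19 (SE 0.10) had the adjusted p of 6.71e-42, and the mean at 100 µM of 158 ± 2.22 CPM lay beside 150.4 ± 12.5 CPM in unstimulated cells (SD, n = 4 each). Mmp10, a stromelysin that cleaves matrix, had 3.85, 6.38, 4.74 and 3.33 CPM at 100 µM, against 51.3, 40.7, 59.1 and 49.0 CPM at 0 µM. Has2, which makes hyaluronan, had 25.6, 26.3, 20.98 and 25.2 CPM at 100 µM, against 142, 170.1, 216 and 186 CPM at 0 µM. Plau, the urokinase plasminogen activator, had 14.1, 27.1, 36.5 and 24.2 CPM at 100 µM, against 155, 129, 142 and 131 CPM at 0 µM. These 3 genes had log2 changes of -3.47 (SE 0.34), -2.85 (SE 0.19) and -2.46 (SE 0.16), all with adjusted p under 0.05, and at 100 µM each lay below its unstimulated mean of 20.9, 88.9 and 37.9 CPM. Icam1, the leukocyte adhesion molecule, had 1.92, 1.60, 0.677 and 1.43 CPM at 100 µM, against 30.1, 15.97, 18.2 and 7.40 CPM at 0 µM, a log2 change of -3.60 (SE 0.46, adjusted p = 3.97e-11). Acod1, which makes itaconate, had 1 count at 100 µM and 24 at 0 µM, a ratio of 34.6 with a 95% counting interval of 5.63 to 1421. Nos2, the inducible nitric oxide synthase, had 0 counts at 100 µM and 5 at 0 µM, at least 2.40-fold lower when the 4 libraries at 100 µM are set to 3 counts in all, and did not pass the test. Ptgs2, Ptx3, Vcam1 and Sod2 were lower by log2 changes of -1.09, -1.09, -0.75 and -0.78, whereas Tnfaip6 at 0.30 and C3 at 0.11 did not pass.

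Among innate sensors and their adaptors 8 of 15 were lower, against 13.6% of all genes, at a median log2 change of -0.84. The count filter used all 41 groups, so a gene near the floor here could be tested through other groups. With the 8 libraries fitted alone 6 of 11 were lower, at a median of -0.48, beside 1150 of all 9596 genes tested in that fit. Nlrp3, the inflammasome sensor, had 2 counts at 100 µM and 29 at 0 µM, a ratio of 20.9 with a 95% counting interval of 5.28 to 181. Clec4e, a lectin receptor, had 0 counts at 100 µM and 17 at 0 µM, at least 8.16-fold lower by the same floor. Ripk2, the kinase below the NOD receptors, averaged 31.0 ± 6.48 CPM at 100 µM and 77.1 ± 1.84 CPM at 0 µM, beside 31.0 CPM in unstimulated cells (SD, n = 4 each). Irf1, a transcription factor of both the NF-κB and the interferon response, averaged 592 ± 82.1 CPM at 100 µM and 1058 ± 39.9 CPM at 0 µM. The 34 interferon-stimulated genes tested had a median log2 change of -0.11, and edgeR called none of them at an adjusted p under 0.05, 4 lower and 0 higher at an unadjusted p under 0.05, and DESeq2 none. Without the filter on low counts 9 of them were called lower and 2 higher.

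The lists of the machinery between receptor and NF-κB are small, and their counts stand beside 22.0% called among all genes, in both directions together. Of 20 tested members of the TNF receptor complex 3 were lower and 1 was higher, a share near that of all genes, and the median log2 change was 0.00. Traf1, an inducible adaptor, had 14.1, 19.2, 10.2 and 10.5 CPM at 100 µM, against 68.4, 71.1, 62.6 and 49.0 CPM at 0 µM, a log2 change of -2.26 (SE 0.20, adjusted p = 9.84e-20). Birc3, the ubiquitin ligase cIAP2, and Cflar, the caspase-8 inhibitor c-FLIP, were lower at -0.73 and -0.44, and Rbck1 of the linear ubiquitin ligase was higher at 0.34, a call lost in DESeq2 (adjusted p = 0.0626) and without replicate 3 or 4. Tnfrsf1a, the receptor TNFR1, gave -0.19, Ripk1 0.26 and Traf2 0.07, and none of these passed the test. Ikbkb, which encodes IKKβ itself, had 43.0, 39.1, 32.5 and 34.2 CPM at 100 µM, against 45.6, 48.7, 34.1 and 42.6 CPM at 0 µM. The groups overlapped, and the log2 change of -0.23 (SE 0.16, adjusted p = 0.354) did not pass the test. Of the 9 kinases of the IKK list, Map3k8, also called Tpl2, was lower at -1.16 and Chuk, which encodes IKKα, at -0.37. The call of Chuk was lost with RLE factors (adjusted p = 0.107 in edgeR), with library totals and in DESeq2 (adjusted p = 0.185). It was also lost without the low-count filter, with the 8 libraries alone and without replicate 1, 3 or 4. Of the 5 NF-κB subunits Nfkb2 was higher at 0.36, a call lost without replicate 2 (adjusted p = 0.211 in edgeR). Rela was lower at -0.23, a call lost with RLE factors (adjusted p = 0.192 in edgeR), with library totals and in DESeq2 (adjusted p = 0.274). The call of Rela was also lost without the low-count filter, with the 8 libraries alone and without any one replicate number. Nfkb1, Rel and Relb lay between -0.36 and -0.11 and did not pass. Survival genes held 5 lower and 1 higher of 13, with the kinase Pim1 at 116 ± 17.5 CPM at 100 µM and 360.3 ± 34.9 CPM at 0 µM (SD, n = 4 each) and the BCL2-family gene Mcl1 at -0.33 among the lower ones and Bcl2 at 0.48 as the higher one. The call of Bcl2 was lost when the 8 libraries were fitted alone (adjusted p = 0.0608 in edgeR) and in fits without single libraries, up to 0.272 without replicate 4.

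**Figure D3:**
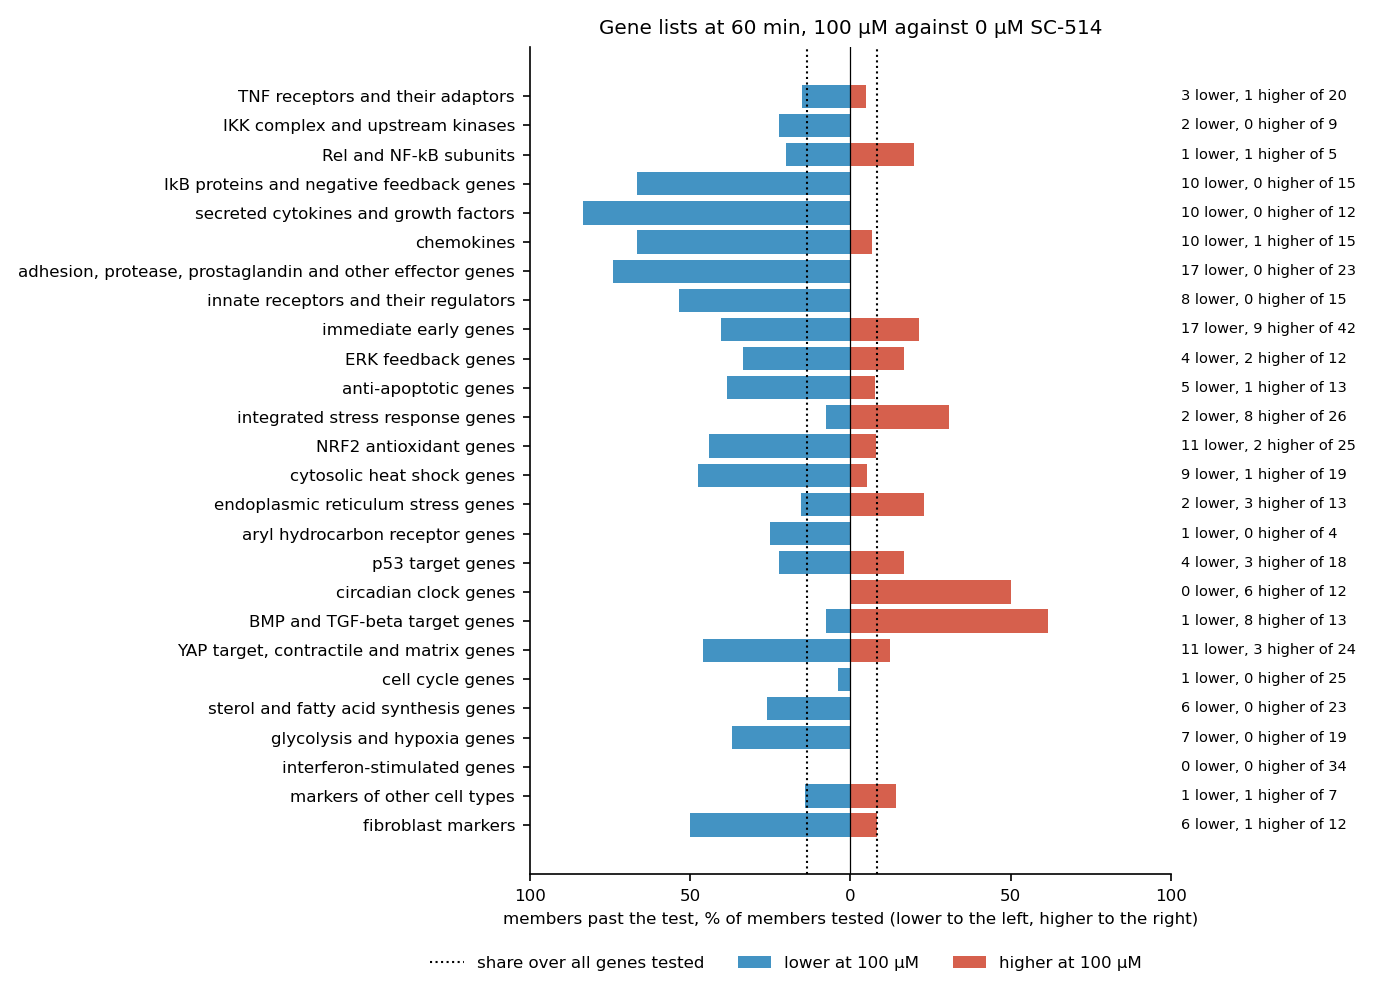
For each of 26 gene lists, the number of tested members that were lower and higher at 100 µM than at 0 µM SC-514 at an adjusted p under 0.05 is drawn as a share of the members, with the counts beside the bars and dotted lines at the shares over all 10766 genes tested. Cytokines, effectors, chemokines and NF-κB feedback genes lie on the lower side, and the BMP and TGF-β list and the clock list on the higher side.

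Immediate early genes went both ways. Of 42 tested, 17 were lower and 9 were higher, against 13.6% and 8.32% of all genes, with a median log2 change of -0.07. With RLE factors 15 were lower and 12 higher, and with library totals 15 and 13. Fos, a subunit of AP-1, had 85.3, 103, 112 and 141 CPM at 100 µM, against 74.9, 88.6, 105 and 105 CPM at 0 µM. Those groups overlapped (log2 change 0.26, SE 0.21, adjusted p = 0.403). Egr1, a zinc-finger factor downstream of ERK and SRF, had 971, 1111, 1186 and 992 CPM at 100 µM, against 719, 704, 858 and 831 CPM at 0 µM. All 4 libraries at 100 µM lay above all 4 at 0 µM, but the log2 change of 0.45 (SE 0.18, adjusted p = 0.0509) missed the threshold. Egr2, its relative, was lower, with 114 ± 18.2 CPM at 100 µM and 239 ± 11.4 CPM at 0 µM (SD, n = 4 each). The orphan receptor gene Nr4a2 had 5.13, 5.59, 0.677 and 5.70 CPM at 100 µM, against 26.0, 40.7, 29.6 and 21.3 CPM at 0 µM, and the AP-1 member Fosl1 averaged 104 ± 17.8 CPM at 100 µM and 253 ± 26.5 CPM at 0 µM. Areg and Ereg, ligands of the EGF receptor, were lower at -3.09 and -1.31. On the other side Ccn1, a matricellular protein gene, had 1396, 2099, 1657 and 1123 CPM at 100 µM, against 699.8, 539.7, 719 and 803 CPM at 0 µM, a log2 change of 1.18 (SE 0.17, adjusted p = 3.55e-09). Fosb, Dusp2, Atf3, Klf4, Srf, Plk2, Hbegf and Jund were the other 8 higher members, at 2.08, 1.71, 0.74, 0.68, 0.60, 0.59, 0.51 and 0.50. The inhibitors of ERK signalling were mixed, 4 lower and 2 higher of 12, with Etv4 at -1.32 and Spry1 at 1.48, and with library totals 3 were lower and 4 higher.

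The 12 named genes with the largest increases included 4 histone genes. Hist1h1c, a linker histone gene, had 222, 286, 301 and 332 CPM at 100 µM, against 36.6, 25.5, 67.1 and 44.4 CPM at 0 µM, a log2 change of 2.77 (SE 0.29, adjusted p = 1e-14). Hist1h2bc, a gene of histone H2B, had 117, 182, 135 and 154 CPM at 100 µM, against 22.8, 27.9, 52.3 and 53.7 CPM at 0 µM. Both pairs of groups lay well apart. Hist2h3c1 and Hist2h3c2 were higher at 2.72 and 2.36, but these near-identical copies can share reads, so which of them rose is uncertain. Of 25 cell-cycle genes 1 was lower, Ccnd1 at -0.42, against 13.6% of all genes. The others were not called, and the median log2 change was 0.08.

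Of 13 tested genes of BMP and TGF-β signalling 8 were higher, against 8.32% of all genes, while 1 was lower and 4 were not called, at a median log2 change of 0.61. With the 8 libraries fitted alone 5 of 12 were higher and 1 was lower. Id2, an inhibitor of basic helix-loop-helix factors that BMP signalling induces, had 55.8, 56.7, 83.2 and 66.0 CPM at 100 µM, against 7.32, 13.6, 14.8 and 9.25 CPM at 0 µM, a log2 change of 2.56 (SE 0.32, adjusted p = 5.66e-11). Smad6, which inhibits BMP receptors, had 72.4, 70.2, 110.3 and 84.1 CPM at 100 µM, against 17.1, 24.8, 17.1 and 10.2 CPM at 0 µM, a log2 change of 2.26 (SE 0.32, adjusted p = 3.75e-09). Neither pair of groups overlapped. Smad9, Ccn2, Id4, Smad7, Skil and Id1 were higher at 1.48, 1.17, 1.05, 0.66, 0.61 and 0.54, and the corepressor Tgif1 was the lower member at -0.48. Atoh8, a helix-loop-helix factor known as a BMP target in endothelium, had 63.5, 34.3, 73.1 and 44.2 CPM at 100 µM, against 11.4, 9.58, 12.5 and 20.4 CPM at 0 µM. Fzd5, a Wnt receptor, and Slc30a1, a zinc exporter, averaged 28.5 ± 9.83 and 34.2 ± 6.81 CPM at 100 µM, against 7.21 ± 0.792 and 9.36 ± 3.09 CPM at 0 µM (SD, n = 4 each). Of the circadian clock list 6 of 12 were higher, at a median log2 change of 0.35, led by Cry2 at 1.34 and Per3 at 1.21, both clock repressors.

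Stress responses were uneven, and their counts stand beside 13.6% lower and 8.32% higher among all genes. Of 26 genes of the integrated stress response 8 were higher and 2 lower, at a median log2 change of 0.14. Chac1, a glutathione-degrading enzyme gene, averaged 278 ± 60.7 CPM at 100 µM and 102 ± 12.8 CPM at 0 µM, and Ddit3, which encodes CHOP, averaged 152 ± 28.9 CPM at 100 µM and 75.9 ± 8.32 CPM at 0 µM (SD, n = 4 each). Sesn2 and Trib3 were higher at 1.09 and 0.90, whereas Atf4 at 0.10 and Asns at 0.12 did not pass the test. Herpud1 of the endoplasmic reticulum was higher at 1.40, and Hyou1, a chaperone there, was lower at -0.59, among 3 higher and 2 lower of 13. Heat-shock genes held 9 lower and 1 higher of 19 (6 and 2 with library totals), with Hsph1 at -0.84 and Hspa1b at -1.12 lower and the co-chaperone Dnajb1 higher at 0.84. NRF2 targets held 11 lower and 2 higher of 25 (7 and 3 with library totals), with the transporter Abcc1 at -0.89 and the cystine carrier Slc7a11 at -0.75 lower and Hmox1, haem oxygenase, at 0.73 higher. The p53 targets held 4 lower and 3 higher of 18, which became 2 and 4 with RLE factors, and of 4 tested targets of the aryl hydrocarbon receptor Cyp1b1 was lower at -0.47, a call lost without replicate 3 (adjusted p = 0.0673 in edgeR).

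Cytoskeletal and matrix genes were lower in part. In the list of contractile and YAP-responsive genes 11 of 24 were lower and 3 higher, against 13.6% and 8.32% of all genes, at a median log2 change of -0.26. Actb, β-actin, averaged 3499 ± 239 CPM at 100 µM and 4897 ± 303 CPM at 0 µM, and Acta2, smooth muscle actin, 293 ± 57.3 CPM at 100 µM and 573 ± 4.83 CPM at 0 µM (SD, n = 4 each). Tagln and Myl9, of the contractile apparatus, were lower at -1.40 and -1.21, while Ccn1, Ccn2 and Col3a1 were higher. The call of Ccn2 was lost with the 8 libraries fitted alone (adjusted p = 0.0776 in edgeR), and that of Col3a1 without any one replicate number, at adjusted p from 0.0584 to 0.253. Of the 12 tested fibroblast markers 6 were lower and 1 higher (3 and 2 with library totals), with Pdgfra, a receptor of platelet-derived growth factor, at -0.73. Of the markers of other cells tested, Cd14 was lower at -1.53 and Lpl higher at 0.47 of 7, and both have roles outside the cell types they mark. Sterol genes held 6 lower of 23 (3 with library totals), with Hmgcs1, an enzyme gene of cholesterol synthesis, at -0.70, and glycolysis and hypoxia genes 7 lower of 19, with Adm at -1.27 and Egln3 at -1.07.

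**Figure D4:**
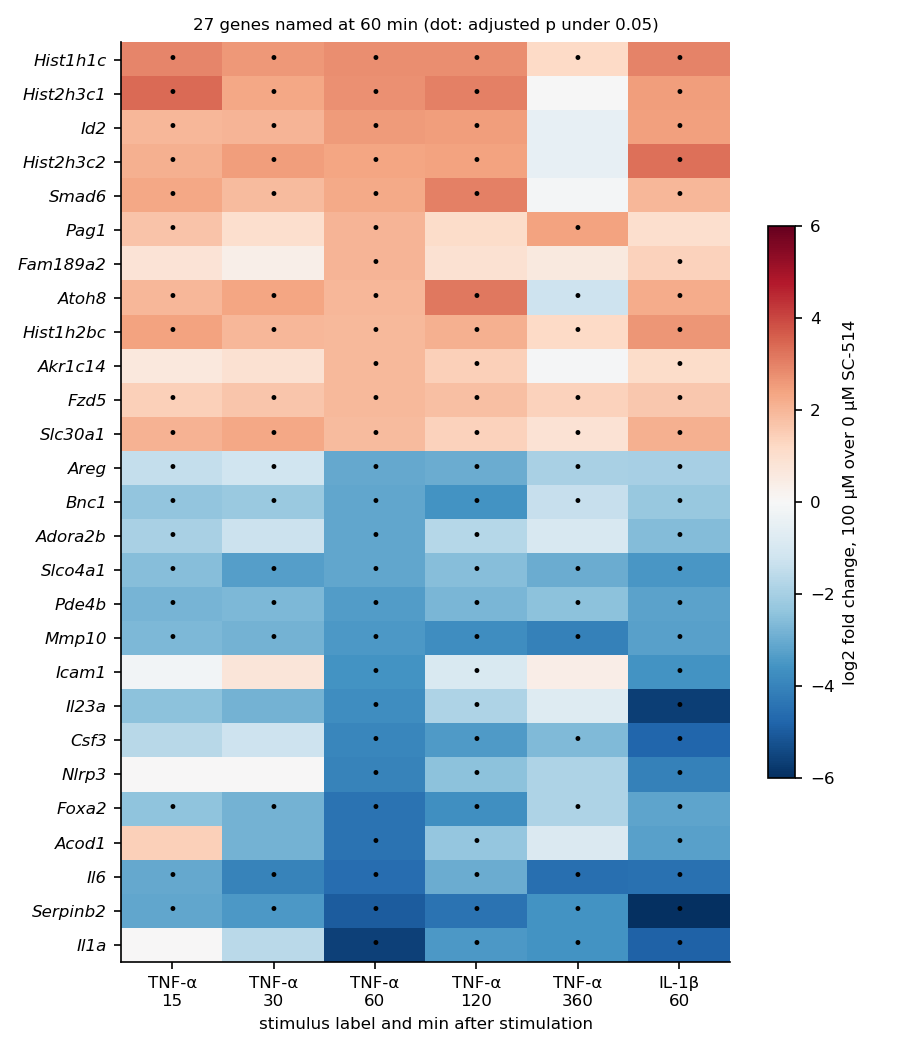
Log2 change at 100 µM against 0 µM SC-514 for the 15 lower and 12 higher named genes under TNF-α at 15, 30, 60, 120 and 360 min and under IL-1β at 60 min, with a dot where the adjusted p is under 0.05. Il6 is negative in all 6 columns, and Id2 is positive in all but the 360 min column.

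The remaining named genes with large decreases came from several families. Serpinb2, an inhibitor of plasminogen activators, had 1.28, 0, 1.35 and 0 CPM at 100 µM, against 27.7, 19.2, 17.1 and 25.9 CPM at 0 µM (log2 change -4.98, SE 0.53, adjusted p = 2.2e-14). Foxa2, a forkhead transcription factor, had 0, 3.99, 0 and 1.43 CPM at 100 µM, against 30.1, 38.3, 28.4 and 17.6 CPM at 0 µM (log2 change -4.42, SE 0.43, adjusted p = 3.43e-17). Pde4b, which degrades cyclic AMP, had 9.62, 3.19, 6.77 and 5.70 CPM at 100 µM, against 62.7, 76.6, 72.8 and 57.4 CPM at 0 µM. Those groups did not overlap. Bnc1, a zinc-finger gene, had 4.49, 4.79, 3.38 and 3.80 CPM at 100 µM, against 43.1, 43.9, 26.2 and 27.8 CPM at 0 µM. Adora2b, an adenosine receptor gene, had 7.05, 5.59, 1.35 and 0.9502 CPM at 100 µM, against 37.4, 46.3, 21.6 and 15.7 CPM at 0 µM, and Slco4a1, an organic anion transporter gene, 1.28, 1.60, 0 and 0.475 CPM at 100 µM, against 6.51, 12.8, 6.82 and 3.70 CPM at 0 µM.

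Set against unstimulated cells, the libraries with TNF-α for 60 min and 100 µM SC-514 differed in 1331 lower (12.4%) and 1159 higher (10.8%) genes. Of the 15 lower named genes 8 had a mean at 100 µM below the unstimulated mean, and 6 of the 15 were called lower and 1, Il23a, higher. Foxa2, Serpinb2, Slco4a1, Bnc1, Mmp10 and Pde4b were the 6, at log2 changes against unstimulated cells of -3.72, -2.83, -3.76, -2.64, -2.20 and -1.95. Il6 at 0.12 (SE 0.46), Ptges at 0.07 (SE 0.11) and Cxcl5 at -0.09 (SE 0.18) did not pass that test. Other TNF-α genes stayed well above the unstimulated level at 100 µM. Cxcl1 kept 52.8 ± 2.65% (SE) of its rise, Ccl2 67.0 ± 6.53%, Csf2 37.6 ± 3.36%, Ccl20 23.4 ± 3.02% and Cxcl2 21.8 ± 1.02%. All 12 higher named genes lay above the unstimulated mean, 11 of them past the test, with Hist1h1c at 3.50 and Slc30a1 at 2.98, and Fam189a2 at 0.60 was the exception. Because the 15 and the 12 were chosen by values in these same 100 µM libraries, their counts against unstimulated cells are not independent of that choice.

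The 0 µM libraries are shared by the comparisons at 25, 50 and 100 µM, so each dose is given beside the others without a further test. At 25 µM 601 genes (5.58%) were lower and 438 (4.07%) higher, and at 50 µM 1129 (10.5%) were lower and 849 (7.89%) higher. All 15 lower named genes had means that fell with each step of dose, 8 of them called at 25 µM and 14 at 50 µM. The 15 lower and 12 higher named genes were chosen by their change between these 0 µM and 100 µM libraries. The ends of their dose order were therefore set by the choice, and the calls at 25 and 50 µM use the same 0 µM libraries. For Il6 the means were 301 ± 29.5, 111 ± 23.0, 57.2 ± 28.4 and 12.1 ± 5.17 CPM at 0, 25, 50 and 100 µM (SD, n = 4 each). Cxcl5 averaged 985 ± 112, 504 ± 125, 333 ± 77.2 and 129 ± 16.5 CPM along the same doses. Csf2 averaged 251 ± 29.3, 219.7 ± 30.2, 137 ± 18.2 and 95.0 ± 12.6 CPM, and the means of Nfkbia were 2160.1 ± 129.7, 2053 ± 99.3, 2044 ± 120.0 and 1816 ± 81.1 CPM. Of the cytokine list 5 genes were lower at 25 µM and 8 at 50 µM, and of the NF-κB feedback list 1 and 8. Among the 12 higher named genes 8 had means ordered by dose, 6 were called at 25 µM and 9 at 50 µM. Id2 averaged 11.2 ± 3.53, 24.6 ± 5.83, 40.8 ± 14.9 and 65.4 ± 12.8 CPM at 0, 25, 50 and 100 µM, whereas Hist1h2bc averaged 39.2 ± 16.1, 38.9 ± 14.5, 59.1 ± 15.7 and 147 ± 27.9 CPM and was called at 100 µM but at neither lower dose.

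At the other times under TNF-α, which used other libraries, 1425 (13.2%) genes were lower and 968 (8.99%) higher at 15 min. After 30 min 1158 genes (10.8%) were lower and 767 (7.12%) higher, after 120 min 1620 (15.0%) were lower and 1236 (11.5%) higher, and after 360 min 1661 (15.4%) were lower and 1222 (11.4%) higher. Of the 1468 genes lower at 60 min, 951 were also lower at 15 min (64.8% of the 60 min list and 66.7% of the 15 min list), 856 were lower after 30 min (58.3% and 73.9%), 1004 after 120 min (68.4% and 62.0%) and 907 after 360 min (61.8% and 54.6%). Of the 896 genes higher at 60 min, 486 were also higher at 15 min (54.2% and 50.2%), 395 were higher after 30 min (44.1% and 51.5%), 499 after 120 min (55.7% and 40.4%) and 346 after 360 min (38.6% and 28.3%). Il6 was lower at every time, by log2 changes of -3.07, -3.99, -4.55, -2.99 and -4.51 at 15, 30, 60, 120 and 360 min. Id2 was higher by 2.00, 2.04, 2.56 and 2.49 at 15 to 120 min, and its value of -0.49 at 360 min did not pass the test. Of the BMP and TGF-β list 6 of 13 were lower at 360 min, against 8 higher and 1 lower at 60 min, while of the cytokine list 4, 5, 10, 10 and 8 of 12 were lower at 15, 30, 60, 120 and 360 min. Of the 34 interferon-stimulated genes 16 were lower at 15 min.

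The effect at 60 min differed from that at 30 min in 46 genes, 42 with a lower (0.390%) and 4 with a higher value at 60 min (0.0372%), and from that at 120 min in 116 genes, 80 lower (0.743%) and 36 higher (0.334%). Leaving out replicate 3 in every group left 10 genes in the first count, and leaving out replicate 4 left 52 in the second. Ptges was the leading named gene of the first, with 131 ± 11.9 CPM at 100 µM and 184 ± 17.1 CPM at 0 µM at 30 min, and the difference between the 60 and 30 min effects was -1.70 on the log2 scale (SE 0.15, adjusted p = 9.47e-17). Rnd1 averaged 45.2 ± 12.2 CPM at 100 µM and 144 ± 6.42 CPM at 0 µM at 60 min, but 19.4 ± 4.63 CPM at 100 µM and 17.9 ± 6.20 CPM at 0 µM at 30 min, a difference of -1.81 (SE 0.31, adjusted p = 4.91e-05). Twist2, Ets1, Nfe2l2 and Sod2 differed in the same direction by -0.998, -0.95, -0.77 and -0.60. Cxcl1 differed the other way. At 30 min it averaged 155 ± 24.4 CPM at 100 µM and 734 ± 83.3 CPM at 0 µM, a log2 change of -2.24, and the difference was 1.37 (SE 0.21, adjusted p = 2.91e-06). Enoph1, Dusp1 and Yeats2 were the other 3 genes in that direction, at 1.24, 1.20 and 0.75.

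**Figure D5:**
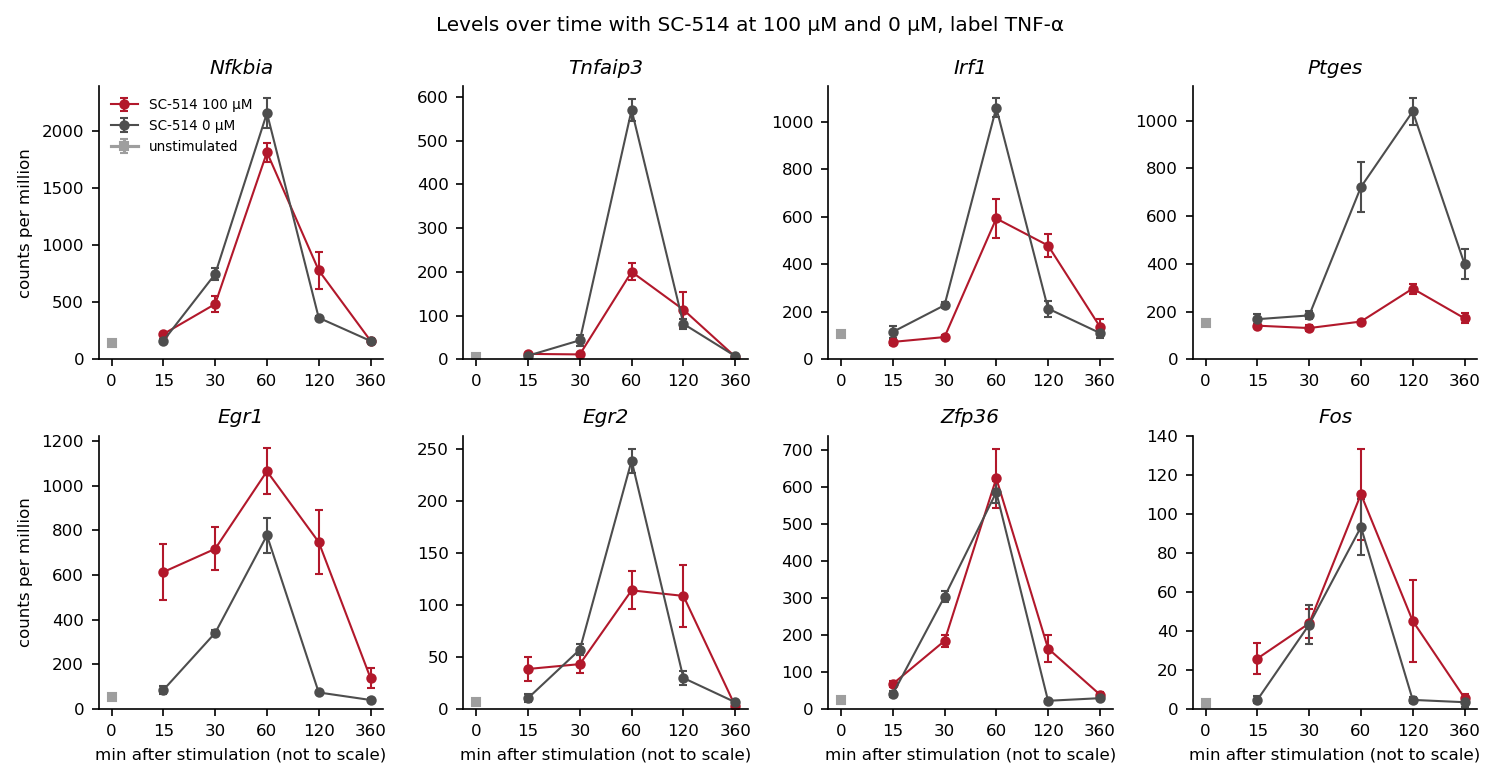
Mean ± SD levels in CPM (n = 4) of Nfkbia, Tnfaip3, Irf1, Ptges, Egr1, Egr2, Zfp36 and Fos after 15, 30, 60, 120 and 360 min of TNF-α with 100 µM and with 0 µM SC-514, on a time axis that is not to scale. At 120 min Egr1 averages 748 CPM at 100 µM and 74.4 CPM at 0 µM, whereas Ptges is lower at 100 µM from 30 min on.

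The leading named genes of the difference from 120 min included Egr1, Zfp36, Egr2, Tnfaip3 and Irf1 on the lower side and Nfkb1, Hivep2, Trps1 and Cemip on the higher side. Egr1 averaged 748 ± 145 CPM at 100 µM and 74.4 ± 8.07 CPM at 0 µM at 120 min (SD, n = 4 each), and the 60 min effect minus the 120 min effect was -2.87 on the log2 scale (SE 0.29, adjusted p = 1.53e-13). Zfp36 averaged 163 ± 36.6 CPM at 100 µM and 22.4 ± 4.57 CPM at 0 µM at 120 min, a difference of -2.79 (SE 0.31, adjusted p = 5.95e-12). Egr2 was lower at 60 min and higher at 120 min, where it averaged 109 ± 30.2 CPM at 100 µM and 29.9 ± 6.90 CPM at 0 µM, a difference of -2.94 (SE 0.27, adjusted p = 6.03e-16). Tnfaip3 and Irf1 likewise were lower at 60 min and higher at 120 min, with 113 ± 39.7 and 478 ± 49.0 CPM at 100 µM against 81.0 ± 12.1 and 213 ± 33.9 CPM at 0 µM, and differences of -2.03 and -2.01. Nfkb1, the gene of the p105 precursor, was the reverse, with 135 ± 7.82 CPM at 100 µM and 309 ± 20.5 CPM at 0 µM at 120 min, a log2 change of -1.20, and a difference of 1.03 (SE 0.16, adjusted p = 1.97e-06). Nfkbia averaged 779.8 ± 163.7 CPM at 100 µM and 364 ± 17.4 CPM at 0 µM at 120 min, a log2 change of 1.10 that passed the test.

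Under IL-1β for 60 min, 1552 genes (14.4%) were lower and 1239 (11.5%) higher at 100 µM than at 0 µM. Of the 1468 genes lower under TNF-α 975 were also lower under IL-1β (66.4% of the TNF-α list and 62.8% of the IL-1β list), and of the 896 higher genes 492 were (54.9% and 39.7%). The effect differed between the stimuli in 75 genes, 56 of them lower under TNF-α (0.520%) and 19 higher (0.176%), and leaving out replicate 4 in every group left 14. Il6 averaged 10.8 ± 4.24 CPM at 100 µM and 245 ± 39.2 CPM at 0 µM under IL-1β, a log2 change of -4.47 beside -4.55 under TNF-α. Rplp1, a protein of the large ribosomal subunit, led the named genes among the 56, chosen after genes called Rpl or Rps and a digit were left out. Rplp1 had 1599 ± 104 CPM at 100 µM and 1790.3 ± 38.9 CPM at 0 µM under TNF-α, and 1908 ± 122 CPM at 100 µM and 1499.7 ± 89.4 CPM at 0 µM under IL-1β, a difference of -0.51 (SE 0.09, adjusted p = 3.37e-05). Ribosomal protein genes took 5.29 to 5.63% of counts at 100 µM and 5.35 to 5.57% at 0 µM under TNF-α, but 5.46 to 6.12% at 100 µM and 4.78 to 5.36% at 0 µM under IL-1β, and the part of this in the difference was not tested. Eef1g and Npm3, which serve translation and ribosome assembly, differed in the same direction by -0.55 and -0.57. Sdc1, the proteoglycan syndecan-1, was lower under both stimuli and less so under TNF-α, with a difference of 0.56, and Enoph1, an enzyme of methionine salvage, was higher under TNF-α at 0.70, a call lost without replicate 1, 2 or 3, and lower under IL-1β at -0.71.

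Genes that TNF-α alone raised at 30 min, in libraries apart from the 8, were mostly lower at 100 µM after 60 min. TNF-α for 30 min against unstimulated cells gave 60 higher genes (0.557%) and 11 lower ones (0.102%). Of the 60, 38 were lower at 100 µM (63.3%), 5 were higher (8.33%) and 17 were not called. Among all genes 13.6% were lower and 8.32% higher. The median log2 change of the 60 was -0.58, against 0.01 for all genes. Il6, Areg, Cxcl5, Tcim and Cxcl2 were the 5 with the largest decreases, and the 5 higher ones were Ccn1, Plk2, Hbegf, Nfkb2 and Vasn. Junb, Zfp36, Ier2 and Gadd45b were among the 17, at 0.03, 0.09, 0.27 and 0.33. Of the 984 genes raised at 120 min (9.14%), 396 were lower at 100 µM (40.2%) and 64 were higher, and of the 550 genes lowered at 120 min (5.11%) 79 were lower and 59 higher. The strict NF-κB site stood in the promoters of 6 of the 42 genes raised at 30 min that have one in the table (14.3%), against 1.61% of all. The looser form was found for 50% of these 42 genes, against 31.0% of all. The AP-1 site was found for 6 of the 42 (14.3%), against 5.97% of all.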

How the data were processed

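The deposited table holds gene-level read counts (whole numbers, not normalized) in 1 column per library, made by the authors, and 4 of the 656 sample records refer to each column, so 1 column was taken as 1 library. Reads were aligned with Bowtie2 to GRCm38 (mm10), per the submitters' processing notes, while the counting tool, its annotation and its use of strand have no mention in the labels or notes, so overlapping, antisense and near-identical genes cannot be separated. Of the gene identifiers 21878 matched the GENCODE M21 annotation and 192 did not, and those without a match were tested under their own names.

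Counts were fitted with edgeR 4.0.16 in R 4.3.3 (robust quasi-likelihood, 41 groups of 4 libraries, TMM factors, filterByExpr leaving 10766 genes), with Benjamini-Hochberg adjustment within each comparison over all genes tested and a threshold of 0.05. The procedure was first tested on simulated counts with few changed genes, balanced in direction, and a common spread for all genes. That simulation did not cover how the split of directions depends on scaling. CPM are counts divided by TMM-scaled library sizes. Intervals and floors of 3 counts cover counting error only. The share of mitochondrial counts was compared by an exact permutation test. Named genes were the 15 lower and 12 higher genes with the largest fold among those with a mean of at least 5 CPM, an adjusted p under 0.05 and no overlap between groups. Predicted genes, mitochondrial genes and genes called Rpl or Rps and a digit were excluded, a rule that does not catch Rplp1. Then came 13 fixed genes, up to 3 members per direction of each of 26 lists, and up to 6 genes per direction of each difference test. The difference tests used the same exclusions and level. The genes shown and the lists were chosen with earlier results of these data known. DESeq2 1.42.0, RLE factors, library totals, no low-count filter, a replicate block, the 8 libraries alone, the title reading of the prefix, and fits without shallow libraries or single replicates were the alternatives. Promoters come from RefSeq.

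No 2 libraries of a group were identical. Libraries with the same number in both groups deviated together only in part (correlations of 0.0665 to 0.174 over genes, 3 of 4 pairs above 0.1). Libraries with unlike numbers gave correlations of -0.174 to 0.111. The numbers were not taken as pairs in the main fit, and the replicate block was fitted as an alternative. No column was left unused. Some named genes are not reported here.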

Additional observations from a re-analysis of the deposited data

Results flagged for a closer look

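In 4 of 82 groups of 4 libraries examined, 1 library stood apart from the other 3 by Dixon's criterion, which chance meets in about 1 of 20 groups. Il1a had 28.5 CPM in 1 library at 0 µM, against 15.9 to 16.8 CPM in the others. Nlrp3 had 2.27 CPM in 1 library at 0 µM, against 7.32 to 7.98 CPM. Acod1 had 0.641 CPM, a single count, in 1 library at 100 µM and no count in the others. Hist2h3c1 had 22.3 CPM in 1 library at 100 µM, against 14.7 to 15.7 CPM in the others.

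The effect of 100 µM SC-514 differed between stimuli, by edgeR's test of the difference, in 12 named genes, 11 of which are given here. The differences, TNF-α minus IL-1β on the log2 scale, were -0.51 for Rplp1, -0.55 for Eef1g, -0.44 for Cd63, -0.57 for Npm3 and -0.36 for Hint1, and 1.41 for Enoph1, 0.66 for Slc35a4, 0.56 for Sdc1, 0.40 for Cbx5, 0.82 for Tead3 and 0.56 for Trim27. Of these, Cbx5, Cd63, Enoph1, Hint1, Npm3, Sdc1, Slc35a4, Tead3 and Trim27 lost the call under at least 1 alternative.

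Between times, 60 min minus 30 min, the differences were -1.70 for Ptges, -0.998 for the transcription factor gene Twist2, -0.77 for Nfe2l2, which encodes NRF2, -0.95 for Ets1, -1.81 for Rnd1 and -0.60 for Sod2, mitochondrial superoxide dismutase, and 1.37 for Cxcl1, 1.20 for Dusp1, 1.24 for Enoph1 and 0.75 for Yeats2. Dusp1, Enoph1, Sod2 and Yeats2 lost the call under at least 1 alternative. For 60 min minus 120 min they were -2.94 for Egr2, -2.87 for Egr1, -2.79 for Zfp36, -2.03 for Tnfaip3, -1.60 for Jun and -2.01 for Irf1, and 1.03 for Nfkb1, 1.67 for Hivep2, 1.64 for Trps1, 1.60 for Cemip, 0.47 for the kinase gene Map4k4 and 1.07 for Tbx15. Jun averaged 173 ± 38.1 CPM at 100 µM and 71.3 ± 7.52 CPM at 0 µM at 120 min (SD, n = 4 each). Hivep2, which encodes a zinc-finger protein that binds κB-like sites, averaged 39.9 ± 8.09 CPM at 100 µM and 101 ± 20.7 CPM at 0 µM at 120 min, and Cemip, a hyaluronan-degrading protein gene, 23.2 ± 3.08 CPM at 100 µM and 35.4 ± 6.68 CPM at 0 µM.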

How the results depend on the processing

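Of the 127 named genes called at 100 µM against 0 µM under TNF-α for 60 min, 107 were called under every alternative except the reading of the column prefix from the titles, and so were all 15 lower and all 12 higher named genes. Of genes lower, 944 were found with library totals and 851 in DESeq2, against 1468. Of genes higher, 1396 were found with RLE factors and 1661 with library totals, against 896. RLE factors without the 2 libraries below 100000 counts, an alternative chosen after seeing the data, gave 1414 lower and 961 higher genes, and DESeq2 gave 851 and 956. At 25 µM DESeq2 called 654 genes, against 1039. For TNF-α at 30 min against unstimulated cells 187 genes were called without the filter on low counts and 174 with the replicate block, against 71. The difference between stimuli gave 168 genes with the block, against 75, and that between 60 and 30 min gave 87 without the filter, 25 in DESeq2 and 78 with the block, against 46. The difference between 60 and 120 min gave 77 genes in DESeq2 and 192 with the block, against 116. The replicate block, which rests on shared numbers only, called 2707 genes in the comparison at 60 min, 1630 lower and 1077 higher, including all 2364 called without it, and 3 of 4 libraries at 100 µM correlated best with their own number. Leaving out single libraries or replicate numbers gave 1672 to 2150 genes (1047 to 1333 lower, 611 to 863 higher) at 100 µM, 1180 to 1622 at 50 µM, 518 to 868 at 25 µM, 46 to 95 for TNF-α at 30 min, 14 to 71 for the difference between stimuli, 10 to 27 for that between 60 and 30 min and 52 to 88 for that between 60 and 120 min. Fewer libraries enter these fits. The lowest of these counts came without replicate 4 at 50 µM, replicate 2 at 25 µM, replicate 1 at TNF-α 30 min, replicate 4 for the stimuli, replicate 3 for 60 against 30 min and replicate 4 for 60 against 120 min. Read by the title prefix, the comparison would be that of the libraries labelled IL-1β. Of the 1468 lower genes 19 were called higher in those libraries, and of the 896 higher genes 1 was called lower. Among the 143 named genes 13 keep their sign and lose the call, and 12 change sign with a call under at least 1 reading. Most of these 12 were named because the effect differed between stimuli, so their change of sign is not independent of that choice. The 11 given here have log2 values of 0.0736 for Hspa8, -0.0777 for Pdia4, 0.35 for Rplp1, 0.19 for Eef1g, 0.13 for Cd63, 0.10 for Npm3, 0.23 for Hint1, -0.71 for Enoph1, -0.34 for Cbx5, -0.50 for Tead3 and -0.42 for Trim27. The split of lower and higher genes also moved in other comparisons. It is given as lower and higher genes, with the TMM result after "against". At 50 µM it was 884 and 1235 with library totals, against 1129 and 849. At 25 µM 47.7% of called genes were lower with RLE factors and 43.4% with library totals, against 57.8%. For TNF-α alone it was 57 and 130 after 30 min without the filter, against 11 and 60, and 799 and 826 with RLE factors or 1123 and 709 with library totals after 120 min, against 550 and 984. For 100 µM after 15 min it was 998 and 1555 with RLE factors, 962 and 1633 with library totals and 780 and 1046 in DESeq2, against 1425 and 968. The 30 min split was 1003 and 1013 with RLE factors and 949 and 1135 with library totals, against 1158 and 767. The 120 min split was 1269 and 1833, 1153 and 2176, and 1073 and 1302 with RLE factors, library totals and DESeq2, against 1620 and 1236, and the 360 min split was 1099 and 2416, 1050 and 2594, and 938 and 1768, against 1661 and 1222. Under IL-1β it was 1310 and 1632 with library totals, against 1552 and 1239. Between stimuli it was 52 and 42 with RLE factors, 39 and 38 with library totals, 48 and 28 without the filter and 37 and 23 in DESeq2, against 56 and 19. Beyond fewer libraries and another scale, the cause was not tested. Genes with few counts, such as Il1a, Acod1, Nlrp3 and Nos2 at 100 µM, are limited by depth.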
